A study of Mus musculus with 9 samples.

Results

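The enzymes of phase II conjugation were followed across wild-type mouse liver, liver beside a tumor and the tumor itself. Members were all genes with a platform symbol of the UDP-glucuronosyltransferase families Ugt1 to Ugt3 (UGT), of the cytosolic sulfotransferases (SULT) and of the alpha, mu, pi, theta, omega and kappa classes of glutathione S-transferases (GST). Genes were taken by name, by a rule set with earlier results of these data known. This gave 42 of the 18193 genes on the arrays, namely 10 UGT, 13 SULT and 19 GST genes. Each gene was read from 1 probe set, the brightest over the 9 arrays among those annotated with exactly 1 symbol. A further 5 probe sets carried several symbols, at least 1 of which matched, and were not used. No Ugt1a gene had a probe set of its own by this rule, and these genes are not analysed here.

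All animals were untreated male C57Bl6 mice aged 12 months on regular chow. Wild-type liver, described as normal with mild steatosis, came in 3 pieces from 1 wild-type mouse. The other 6 pieces came from 1 mouse labelled SART1+/-, heterozygous for Sart1, which encodes a spliceosome component also known as hypoxia-associated factor. Of these, 3 were adjacent liver with cellular alteration and severe steatosis, and 3 were a hepatocellular carcinoma with severe steatosis. The model is thus 1 tumor in 1 animal against 1 control animal, and genotype, animal and steatosis cannot be told apart in any comparison with wild type. Each p-value measures the spread between pieces of 1 organ.

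Expression was measured on 1-colour Affymetrix 3' arrays as log2 values made by robust multi-array averaging (RMA), so a difference of 1 is a 2-fold change. Array medians lay between 5.76 and 5.81, and within a group any pair of arrays had r between 0.996 and 0.998 over the probe sets. Sart1 was at 8.34 ± 0.02 in wild-type liver, 8.37 ± 0.03 in the adjacent pieces and 7.74 ± 0.03 in tumor (SD, n = 3). The adjacent pieces thus did not show a lower Sart1 level than wild type, although they carry the heterozygous label, and they are called adjacent-labelled liver here. Of 7 hepatocyte markers measured, 5 were called in no comparison, among them Alb at 14.45, 14.49 and 14.45 in wild-type, adjacent-labelled and tumor pieces. Alb lay at or near the highest value on each array, and bright genes weigh most in the sum given below. Whether the signal was limited at the top of the scale was not tested. Cps1 was lower in tumor, at -1.37, and Ass1 was dim, at 5.74, 4.66 and 4.67, and lower in both, at -1.08 in adjacent-labelled liver and -1.07 in tumor. The summed linear level of these 7 markers ranged from 99649 to 102396 in wild-type liver, 91817 to 92647 in adjacent-labelled liver and 92653 to 95326 in tumor. Of 6 cholangiocyte markers, Krt7, Krt19, Epcam and Sox9 were called in no comparison, with Sox9 at 0.99 in adjacent-labelled liver and 0.73 in tumor. The list's summed level ranged from 447 to 481, from 2016 to 2299 and from 1038 to 1176 in the same order. Cldn7 rose by 3.81 in tumor and 5.31 in adjacent-labelled liver. Cftr was called higher in adjacent-labelled liver alone, by 1.34. It passed the filter given below only through those pieces, so it had to differ. Neutrophil markers summed to 231 to 281, 931 to 1176 and 1207 to 1453. S100a8 and S100a9 were called higher than wild type in both tissues, while Elane was called in no comparison. Enterocyte markers summed to 2302 to 2535, 4381 to 5208 and 4069 to 4979, and these did not move together either. Vil1 rose by 7.11 in adjacent-labelled liver and 3.79 in tumor, and Cdh17 by 1.46 and 5.87. Both were dim in wild-type liver, at 4.29 and 5.04. Fabp2 and Anpep were called in no comparison. The 8 macrophage markers summed to 6020 to 6286, 8690 to 10304 and 8670 to 10744, but they did not move together. Against wild type 2 were called higher and 1 lower in tumor, and 2 higher and 2 lower in adjacent-labelled liver. Timd4 was lower in both, at -1.04 in tumor and -1.52 in adjacent-labelled liver, and Marco in adjacent-labelled liver, at -1.11. B cell markers summed to 133 to 161, 167 to 211 and 260 to 296. The 7 stellate and fibroblast markers summed to 5974 to 8197, 7787 to 9091 and 8760 to 12575. Among these, Col1a1 and Col3a1 were called higher in tumor, at 2.66 and 2.47, and in adjacent-labelled liver, at 3.15 and 2.71. Lrat was called lower in both, at -1.11 in tumor and -1.02 in adjacent-labelled liver. Acta2, Des, Reln and Dcn were not called against wild type. The 3' minus 5' difference of the Actb control probe sets was 0.86 ± 0.02, 0.85 ± 0.05 and 0.59 ± 0.09 (SD, n = 3). The part of other cell types and of RNA quality in the results below was not tested.

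Phase II enzymes attach a polar group to drugs, hormones, bilirubin, bile acids and reactive products, which makes them easier to excrete. UGT enzymes sit in the endoplasmic reticulum and transfer a sugar, usually glucuronic acid from UDP-glucuronic acid. SULT enzymes of the cytosol transfer sulfate from the donor PAPS, and GST enzymes couple glutathione to electrophiles. In mice, many of these genes are expressed mainly in hepatocytes, some at levels that differ between the sexes, and several GST genes are known targets of the oxidative stress regulator NRF2. In pieces of tissue, fewer cells of a type and less RNA per cell cannot be told apart.

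Testing required at least 3 arrays with a value above that array's 40th percentile, a log2 value of 5.16 to 5.26. This left 35 members and 13887 genes in all. The call for a gene needed both an adjusted p under 0.05 in limma and a change of 1 or more on the log2 scale, up or down. Between tumor and wild-type liver 14 of the 35 tested members were called, 3 higher and 11 lower, where 13.0% of all genes tested were called, 8.41% higher and 4.59% lower. Adjacent-labelled against wild-type liver gave 13 members, 5 higher and 8 lower (background 11.5%, with 8.30% higher and 3.22% lower). Tumor against adjacent-labelled liver also gave 13 members, 3 higher and 10 lower (background 5.04%, with 2.10% higher and 2.94% lower). By the adjusted p alone, with no minimum size, 29, 31 and 28 of the 35 members passed in the 3 comparisons, where 63.4%, 63.0% and 45.2% of all genes did. Groups did not overlap in 30, 31 and 30 members, beside 69.1%, 69.5% and 53.0% of all genes. The median difference over the tested members was -0.18, -0.08 and -0.41, and over all genes tested -0.01 in each comparison. Of the 35, 33 lay above the 40th percentile on all 9 arrays. Sult2a2 and Sult2b1 lay below it in all 3 wild-type pieces and passed through the other groups, so these counts describe the members tested and not every member. The 2 comparisons with wild-type liver share their control pieces.

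**Figure D1:**
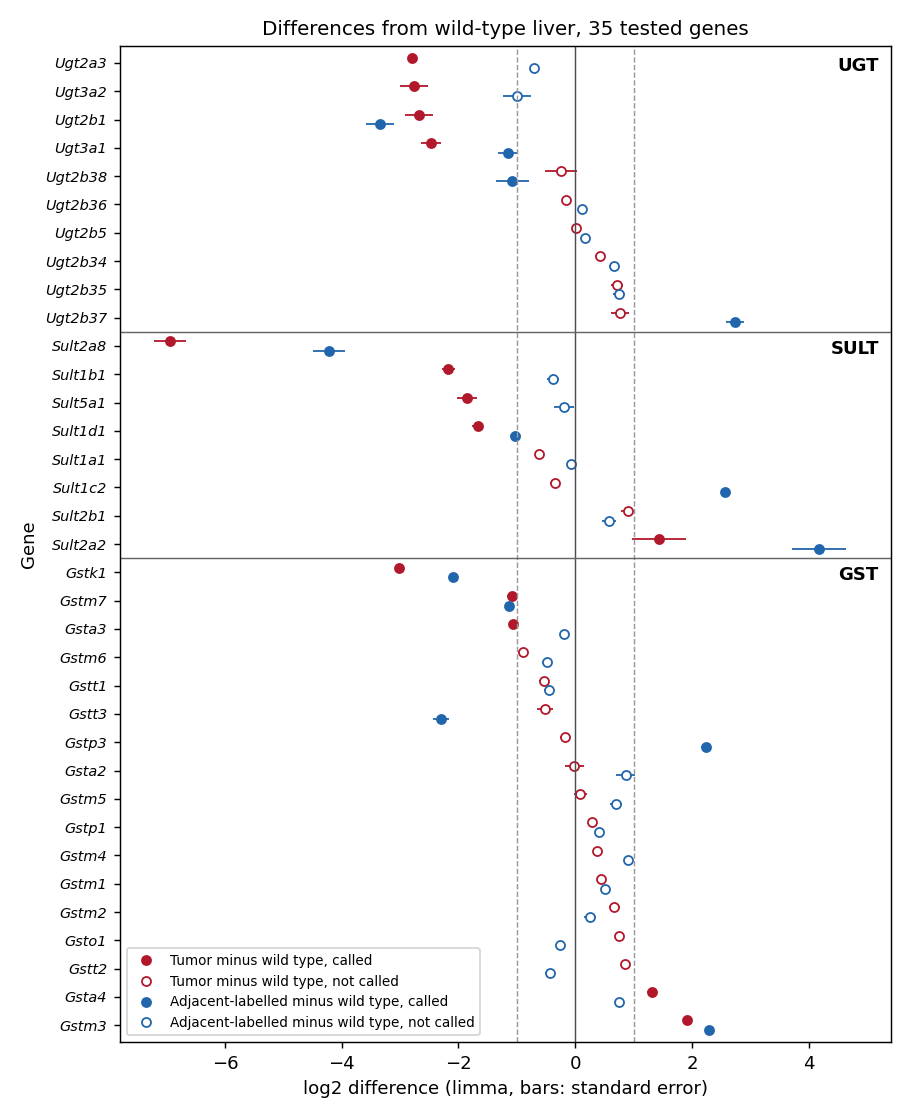
The log2 differences of the 35 tested genes from wild-type liver (x axis, bars are standard errors from limma, n = 3 pieces per group) are plotted by family (y axis), tumor in red and adjacent-labelled liver in blue. Filled points passed the call and dashed lines mark a difference of 1. Sult2a8 lies farthest left at -6.95 in tumor, and Ugt2b37, Sult1c2 and Gstp3 lie right of the line in adjacent-labelled liver alone.

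UGT genes were mostly lower in tumor or under the 2-fold limit, with Ugt2b37 the 1 member called higher, in adjacent-labelled liver. All 10 were tested. In tumor 4 fell and 0 rose against wild-type liver, with a family median of -0.21 beside -0.01 over all genes. In adjacent-labelled liver 3 fell and 1 rose, and between tumor and adjacent-labelled liver 4 fell and 0 rose. The share of all genes called in the same order was 4.59%, 3.22% and 2.94% lower and 8.41%, 8.30% and 2.10% higher.

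Ugt2a3, an enzyme of liver and intestine, was at 11.90, 11.96 and 12.14 in the wild-type pieces, 11.30, 11.30 and 11.29 in the adjacent-labelled pieces and 9.30, 9.17 and 9.17 in the tumor pieces. The 3 groups did not overlap, and the loss lay mostly between adjacent-labelled liver and tumor. The tumor differed from wild type by -2.79 (SE 0.07, limma adjusted p = 4.26e-10) and from adjacent-labelled liver by -2.09 (SE 0.07, adjusted p = 2.4e-08), while adjacent-labelled against wild-type liver gave -0.70, under the 2-fold limit.

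Both members of the Ugt3 family, whose enzymes use sugars other than glucuronic acid, fell in tumor. Ugt3a1 was at 10.84, 10.84 and 11.28 in wild-type, 9.73, 10.00 and 9.79 in adjacent-labelled and 8.78, 8.66 and 8.12 in tumor pieces. It was called lower in each of the 3 comparisons, at -1.15 (SE 0.17) in adjacent-labelled liver, -2.47 (SE 0.17) in tumor and -1.32 between them, with adjusted p = 0.000188, 4.81e-07 and 0.000118 in limma. Ugt3a2 was at 12.24, 12.23 and 12.44, then 11.02, 11.79 and 11.11, then 9.95, 9.67 and 9.02. No values of its groups overlapped, and the tumor was lower than wild type, at -2.76 (SE 0.24, adjusted p = 2.54e-06 in limma). Its difference of -0.997 in adjacent-labelled liver just missed the limit of 1, with adjacent-labelled piece 2 the highest of its group. Without that piece it was -1.24 (adjusted p = 0.000797 in limma), past the limit, and it was -1.03 without wild-type piece 1 or 2, also past it.

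Ugt2b1 went lower in the adjacent-labelled pieces than in the tumor. Its wild-type values were 12.49, 12.51 and 12.71, its adjacent-labelled values 9.79, 8.58 and 9.31, and its tumor values 10.04, 9.69 and 9.94. Adjacent-labelled and tumor pieces lay far below wild type, and they overlapped with each other. The differences were -3.34 (SE 0.24, adjusted p = 7.12e-07) in adjacent-labelled liver and -2.68 (SE 0.24, adjusted p = 3.14e-06) in tumor, about 10.2-fold and 6.41-fold, and tumor against adjacent-labelled liver, at 0.66 (SE 0.24), was not called.

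Ugt2b37 moved the other way. It was close to background in wild-type liver at 5.82, 5.59 and 5.77, reached 8.56, 8.18 and 8.64 in adjacent-labelled liver and was at 6.84, 6.42 and 6.22 in tumor. The adjacent-labelled pieces stood clear of both other groups. The rise was 2.74 (SE 0.16, adjusted p = 1.56e-07), and tumor was lower than adjacent-labelled liver, at -1.97 (SE 0.16, adjusted p = 3.92e-06), while its own difference from wild type, 0.77, was under the limit. Because the wild-type level is dim, the size of the rise depends on background.

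Ugt2b38 was a weaker case. It was at 6.89, 6.67 and 7.76 in wild-type pieces, 5.98, 5.92 and 6.19 in adjacent-labelled pieces and 7.40, 6.51 and 6.67 in tumor pieces. The adjacent-labelled pieces were the lowest, at -1.08 (SE 0.28, adjusted p = 0.00635 in limma), but wild-type piece 3 stood above its group, and without it the difference was -0.75 and no longer called. Tumor against adjacent-labelled liver gave 0.83 (SE 0.28), which became 1.00 and called without tumor piece 2.

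The other 4 UGT genes were called in no comparison. Ugt2b5, Ugt2b36, Ugt2b34 and Ugt2b35 all had group means between 12.12 and 13.50. Ugt2b5 gave 0.02 (SE 0.07) in tumor and 0.16 in adjacent-labelled liver, and Ugt2b36 gave -0.16 (SE 0.07) and 0.11. Ugt2b34 was higher by 0.42 and 0.66 and Ugt2b35 by 0.71 and 0.75, each under 2-fold. These genes are close relatives, and shared hybridisation between them cannot be separated on the array.

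**Figure D2:**
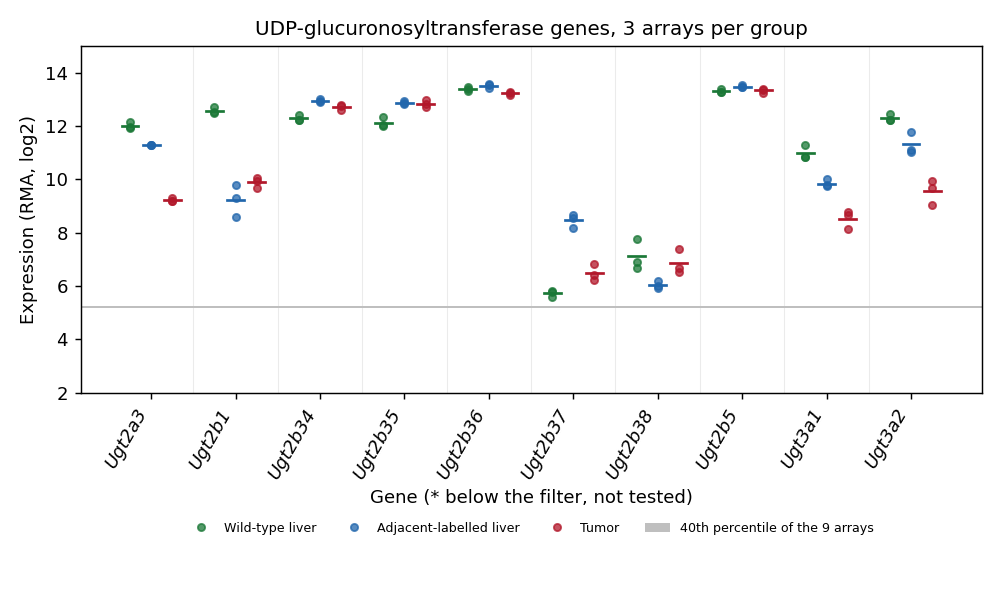
Expression of the 10 UGT genes (x axis) in every piece (y axis, RMA log2 values; points are arrays, bars the mean of 3). Ugt2b1, Ugt2a3, Ugt3a1 and Ugt3a2 lie lower in tumor (red) than in wild-type liver (green), and Ugt2b37 is highest in adjacent-labelled liver (blue), at 8.18 to 8.64.

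The SULT family held the largest change of any member and the widest contrasts between adjacent-labelled liver and tumor. Of 13 genes 8 were tested. In tumor 4 fell and 1 rose against wild-type liver (family median -1.14), in adjacent-labelled liver 2 fell and 2 rose (median -0.14), and between tumor and adjacent-labelled liver 5 fell and 0 rose (median -1.72). The backgrounds are those given above for each comparison.

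Sult2a8, described as a bile acid sulfotransferase of mouse liver, was bright in wild-type liver at 12.46, 12.58 and 12.77. It was at 8.98, 7.65 and 8.55 in adjacent-labelled liver and at 5.69, 5.91 and 5.38 in tumor, just above the 40th percentile of the arrays. The groups were far apart, with the adjacent-labelled pieces in between and more spread out than the rest. Adjacent-labelled liver was lower, at -4.21 (SE 0.27, adjusted p = 3.64e-07), or 18.5-fold, and tumor by -6.95 (SE 0.27, adjusted p = 7.24e-09), or 123-fold. Tumor was also below adjacent-labelled liver, at -2.73 (SE 0.27, adjusted p = 1.91e-05). Since the tumor level is near background, the tumor fold depends on that background.

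Its relative Sult2a2, a hydroxysteroid sulfotransferase, ran against it. Wild-type pieces were at 4.50, 4.56 and 4.81, below the 40th percentile, adjacent-labelled pieces at 8.95, 8.43 and 9.03, and tumor pieces at 5.32, 5.37 and 7.48. All adjacent-labelled pieces were high, and tumor piece 3 stood well above the other 2. The measured rise in adjacent-labelled liver was 4.18 (SE 0.47, adjusted p = 2.13e-05). Since the gene passed the filter only through the groups where it is higher, it had to differ, and the size of its differences from wild type depends on background. Tumor differed from wild type by 1.43 (SE 0.47, adjusted p = 0.0205), which rested on tumor piece 3: without it the difference was 0.72 (adjusted p = 0.00458 in limma), under the limit. Without wild-type piece 1 or 2 the call was also lost, at adjusted p = 0.056 and 0.0519 in limma. Against adjacent-labelled liver the tumor was lower, at -2.74 with all pieces and -3.46 without tumor piece 3.

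Sult1c2 was also highest in adjacent-labelled liver, with little spread. It was at 6.79, 6.87 and 6.77 in wild-type pieces, 9.43, 9.31 and 9.39 in adjacent-labelled pieces and 6.33, 6.46 and 6.58 in tumor pieces. Only the adjacent-labelled pieces were high, by 2.57 over wild type (SE 0.07, adjusted p = 1.28e-09) and with tumor lower than them, at -2.92 (SE 0.07, adjusted p = 3.1e-09).

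Sult1b1, which sulfates thyroid hormones and phenols, and Sult5a1 fell in tumor and were not called in adjacent-labelled liver. Sult1b1 was at 8.76, 8.70 and 8.73 in wild-type, 8.34, 8.37 and 8.34 in adjacent-labelled and 6.73, 6.70 and 6.25 in tumor pieces, a tumor difference of -2.17 (SE 0.11, adjusted p = 4.33e-08) beside -0.38 in adjacent-labelled liver. Sult5a1 was at 8.04, 7.84 and 8.53, then 7.71, 8.19 and 7.94, then 6.38, 6.32 and 6.17. Its wild-type and adjacent-labelled values overlapped, and the tumor lay below both, at -1.85 (SE 0.17, adjusted p = 3.55e-06) and -1.66 (SE 0.17, adjusted p = 1.92e-05).

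Sult1d1, an enzyme that sulfates catecholamines, fell in both. Its values were 11.05, 11.04 and 11.29 in wild-type pieces, 10.08, 10.11 and 10.11 in adjacent-labelled pieces and 9.46, 9.30 and 9.63 in tumor pieces. The tumor difference was -1.67 (SE 0.09, adjusted p = 9.07e-08). The adjacent-labelled one, -1.03 (SE 0.09, adjusted p = 4.27e-06), lay at the limit and was -0.95 without wild-type piece 3. A dimmer probe set of the gene gave -2.05 and -1.25.

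Sult1a1, the main phenol sulfotransferase, was called nowhere, at -0.61 (SE 0.06) in tumor and -0.08 (SE 0.06) in adjacent-labelled liver from a wild-type mean of 12.59. Sult2b1, which acts on cholesterol, was dim, at 4.71 ± 0.14 in wild-type liver and 5.62 ± 0.26 in tumor (SD, n = 3), and its difference of 0.90 was not called. Without tumor piece 1 it was 1.05 and called. Sult1c1, Sult1e1, Sult3a1, Sult4a1 and Sult6b1 did not pass the filter. With the 2 GST genes below the filter, their values lay between 2.67 and 5.16, where a level cannot be told from background.

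**Figure D3:**
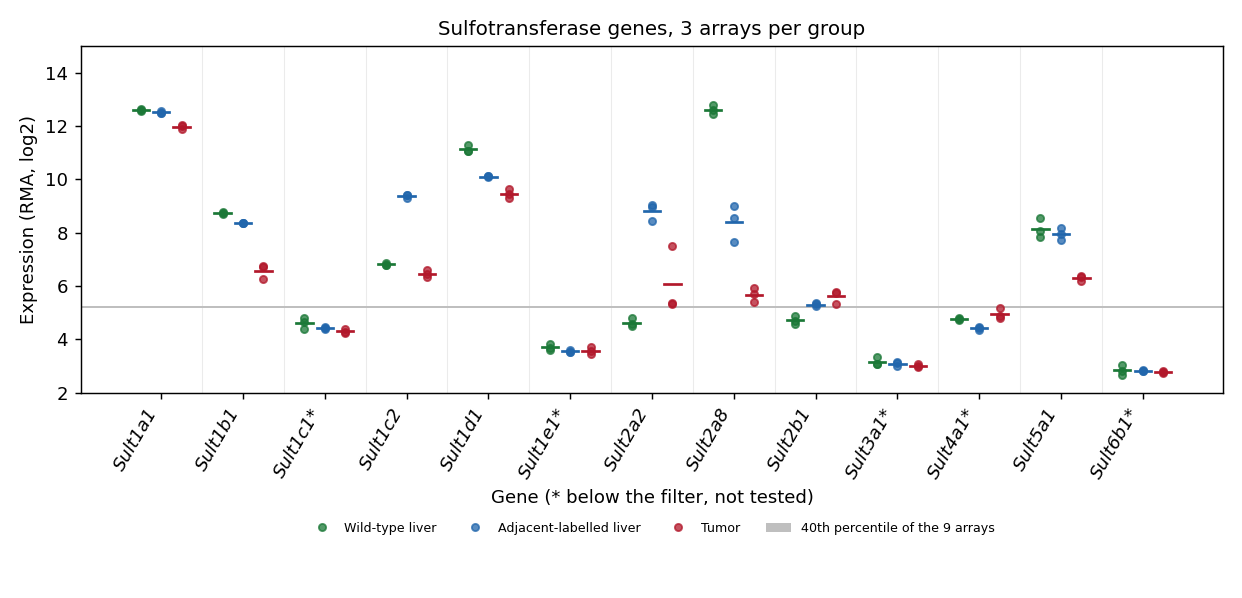
Expression of the 13 SULT genes (x axis) in every piece (y axis, RMA log2 values; points are arrays, bars the mean of 3, grey line the 40th percentile of the arrays). Sult2a8 steps down from wild type (12.46 to 12.77) to tumor (5.38 to 5.91), and Sult1c2 and Sult2a2 are highest in adjacent-labelled liver.

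GST genes called in the comparisons lay in both directions. Of 19 genes 17 were tested and 8 were called in no comparison. In tumor 2 rose and 3 fell against wild-type liver (family median 0.09), in adjacent-labelled liver 2 rose and 3 fell (median 0.25), and between tumor and adjacent-labelled liver 3 rose and 1 fell (median -0.12). Over all genes tested, 8.41%, 8.30% and 2.10% were called higher and 4.59%, 3.22% and 2.94% lower in the same order, so 2 of 17 higher against wild type is near the background.

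Gstm3 of the mu class rose in adjacent-labelled liver and in tumor. It was at 11.61, 11.54 and 11.73 in wild-type, 13.93, 13.93 and 13.91 in adjacent-labelled and 13.63, 13.54 and 13.45 in tumor pieces. Wild type lay well below the other groups. The rise was 2.29 (SE 0.07, adjusted p = 1.69e-09), or 4.90-fold, in adjacent-labelled liver and 1.91 (SE 0.07, adjusted p = 3.75e-09), or 3.76-fold, in tumor. The probe set used may also read related transcripts, as its suffix marks, and the gene's other probe set gave 3.15 and 2.39.

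Gstm7 of the same class fell in both, from 9.96, 9.87 and 9.88 to 8.62, 8.83 and 8.87 in adjacent-labelled liver and 8.88, 8.73 and 8.83 in tumor. Adjacent-labelled and tumor pieces overlapped. The differences were -1.13 (SE 0.08, adjusted p = 4.52e-07) and -1.09 (SE 0.08, adjusted p = 4.81e-07). Another probe set gave -0.36 and -0.31, and the mean of both gave -0.74 and -0.70, so the call depends on the probe set. Among the other mu genes, Gstm1, one of the most abundant in mouse liver, was at 0.45 in tumor and 0.51 in adjacent-labelled liver by the probe set used, which read the same value, 14.02, in all 3 tumor pieces. Its other 3 probe sets gave 0.71 to 0.75 in tumor and 0.68 to 0.82 in adjacent-labelled liver. Gstm2 was at 0.67 and 0.25, Gstm4 at 0.37 and 0.91, Gstm5 at 0.09 and 0.70 and Gstm6 at -0.89 and -0.49, none of them called. The differences over the 7 mu genes thus ran from -1.09 to 1.91 in tumor and from -1.13 to 2.29 in adjacent-labelled liver.

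The alpha class split as well. Gsta4, which conjugates the lipid peroxidation product 4-hydroxynonenal, was at 10.97, 10.85 and 11.15 in wild-type, 11.74, 11.68 and 11.82 in adjacent-labelled and 12.32, 12.33 and 12.24 in tumor pieces. The 3 groups stood in that order from low to high without overlap, with a called tumor difference of 1.31 (SE 0.08, adjusted p = 1.57e-07) and 0.76 in adjacent-labelled liver. Gsta3, a major alpha enzyme of mouse liver, was at 13.20, 13.19 and 13.27, then 12.99, 13.03 and 13.04, then 12.21, 12.15 and 12.11. Only the tumor difference passed, at -1.06 (SE 0.06, adjusted p = 5.82e-08), and a second probe set gave -1.72. Gsta2 was higher in adjacent-labelled liver by 0.86 (SE 0.16) and at -0.02 in tumor. Without wild-type piece 3 its adjacent-labelled difference was 1.06 and called.

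Gstk1, the kappa enzyme of mitochondria and peroxisomes, had the largest GST loss. It was at 11.92, 11.86 and 11.89 in wild-type pieces, 9.81, 9.81 and 9.75 in adjacent-labelled pieces and 8.94, 8.91 and 8.77 in tumor pieces. Pieces of a group hardly differed, and each group was clear of the next. The differences were -2.10 (SE 0.06, adjusted p = 1.5e-09) and -3.01 (SE 0.06, adjusted p = 1.08e-10), or 4.29-fold and 8.07-fold.

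Within the pi class Gstp3 was called and Gstp1 was not. Gstp1 was at 13.82 ± 0.08 in wild-type pieces, 14.22 ± 0.01 in adjacent-labelled pieces and 14.11 ± 0.01 in tumor pieces (SD, n = 3), differences of 0.40 and 0.29 that were not called. Its values lay near the highest on the arrays, and whether the signal was limited there was not tested. Gstp3 was at 9.06, 9.06 and 8.87 in wild-type, 11.20, 11.25 and 11.26 in adjacent-labelled and 8.75, 8.72 and 8.98 in tumor pieces. It rose in the adjacent-labelled pieces by 2.24 (SE 0.08, adjusted p = 6.19e-09), and tumor lay below them, at -2.42 (SE 0.08, adjusted p = 2.29e-08) at values that overlapped wild type.

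The theta genes Gstt3 and Gstt2 and the omega gene Gsto1 were higher in tumor than in adjacent-labelled liver. Gstt3 was at 10.95, 10.82 and 10.99 in wild-type pieces, 8.78, 8.32 and 8.78 in adjacent-labelled pieces and 10.48, 10.56 and 10.17 in tumor pieces. The adjacent-labelled pieces were low, at -2.30 (SE 0.14, adjusted p = 1.83e-07), and tumor was higher than them by 1.78 (SE 0.14, adjusted p = 2.82e-06). Gstt2 was at 10.55, 10.55 and 10.77, then 10.24, 10.05 and 10.25, then 11.52, 11.50 and 11.42. Tumor exceeded adjacent-labelled liver 2.46-fold (log2 SE 0.08, adjusted p = 6.92e-07), while neither tissue was called against wild type, at 0.86 and -0.44. Gsto1, an omega enzyme that reduces dehydroascorbate and arsenicals, was at 10.95, 10.92 and 11.10, then 10.73, 10.74 and 10.74, then 11.72, 11.81 and 11.72, a tumor minus adjacent-labelled difference of 1.01 (SE 0.06, adjusted p = 8.11e-07) that lay at the limit. Without tumor piece 2 it was 0.98, and with the mean of its 2 probe sets 0.85, in both cases not called. Gstt1 was at -0.53 in tumor and -0.45 in adjacent-labelled liver. Gstt4 and Gsto2 did not pass the filter.

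**Figure D4:**
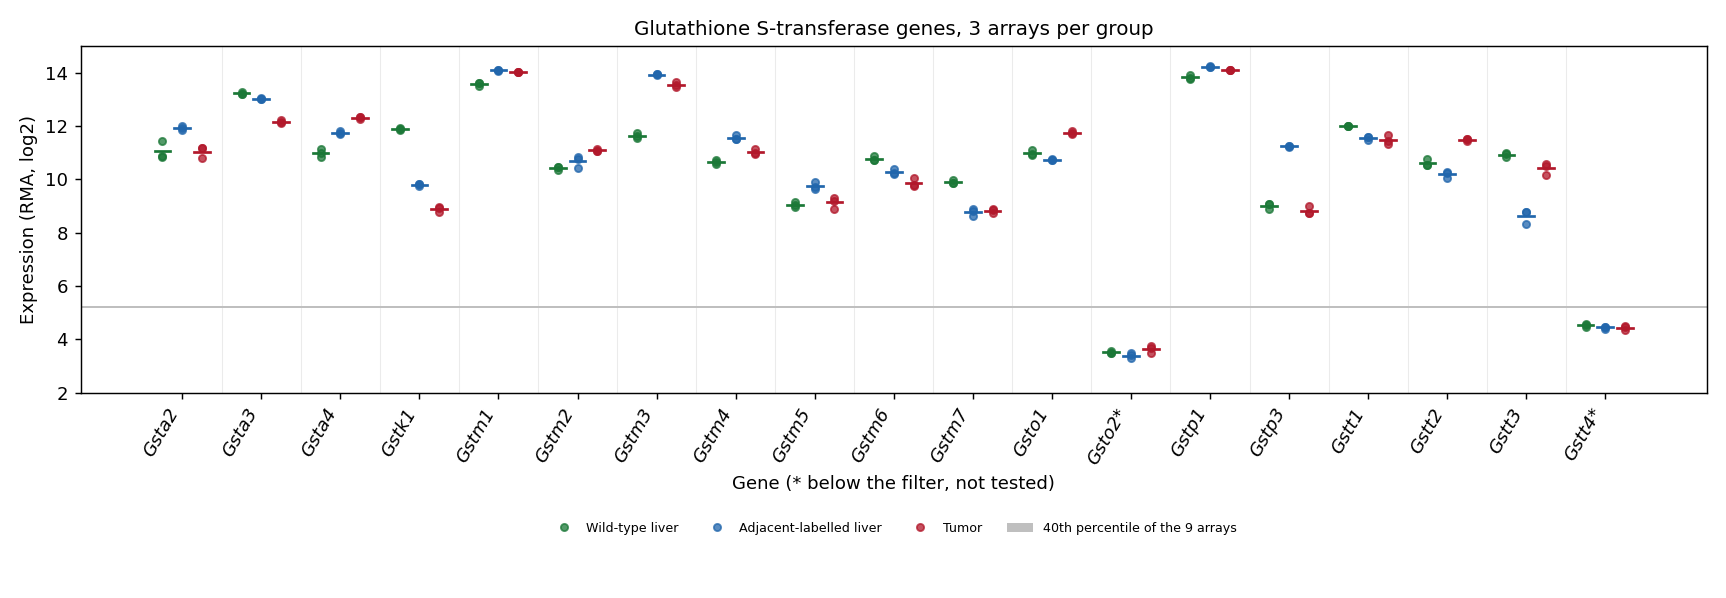
Expression of the 19 GST genes (x axis) in every piece (y axis, RMA log2 values; points are arrays, bars the mean of 3). Gstk1 steps down from 11.86 to 11.92 in wild-type liver to 8.77 to 8.94 in tumor, Gstm3 is higher in adjacent-labelled liver and tumor than in wild type, and Gstp3 and Gstt3 stand apart in adjacent-labelled liver in opposite directions.

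Across families, 4 members were called higher in adjacent-labelled than in wild-type liver and lower in tumor than in adjacent-labelled liver: Ugt2b37, Sult1c2, Sult2a2 and Gstp3. Gstt3 had the mirror pattern, lower in adjacent-labelled liver and higher again in tumor. Among the 4, Sult2a2 passed the filter only through the groups where it is higher, so its difference from wild type had to appear. Sult2a8 and Ugt3a1 were called lower in all 3 comparisons. Ugt2a3, Ugt3a2, Sult1b1 and Sult5a1 were lower in tumor than in both other groups and not called in adjacent-labelled against wild-type liver. Gstk1, Gstm7, Sult1d1 and Ugt2b1 were lower than wild type in adjacent-labelled liver and in tumor and not called between them, and Gstm3 was the 1 member higher in both and not called between them. No member was called in opposite directions in the 2 comparisons with wild type. Over the 35 tested members 14 were called in no comparison.

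Many members lie side by side in the genome, in the gene order of the RefSeq table of assembly GRCm38.p6, and some neighbours differed. On chromosome 5 the 8 Ugt2 genes follow each other with no other protein-coding gene between them, in the order Ugt2b34, Ugt2b1, Ugt2b35, Ugt2b36, Ugt2b5, Ugt2b37, Ugt2a3 and Ugt2b38. In adjacent-labelled liver, Ugt2b1 at -3.34 lay between Ugt2b34 at 0.66 and Ugt2b35 at 0.75, and Ugt2b37 at 2.74 lay between Ugt2b5 at 0.16 and Ugt2a3 at -0.70. Sult1b1 and Sult1d1, which were lower in tumor, follow 2 genes further on. On chromosome 3 the 7 Gstm genes run in the order Gstm5, Gstm7, Gstm6, Gstm3, Gstm2, Gstm1 and Gstm4, and Gstm6 and Gstm3 are direct neighbours at -0.89 and 1.91 in tumor. Sult2a2 and Sult2a8, with opposite changes in adjacent-labelled liver, lie on chromosome 7 with 4 genes between them. The rise of Sult2a2 had to appear, since it passed the filter only through the groups where it is higher. Gstt3, Gstt1, Gstt4 and Gstt2 are adjacent on chromosome 10, and Ugt3a1 and Ugt3a2, which fell together in tumor, are adjacent on chromosome 15.

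**Figure D5:**
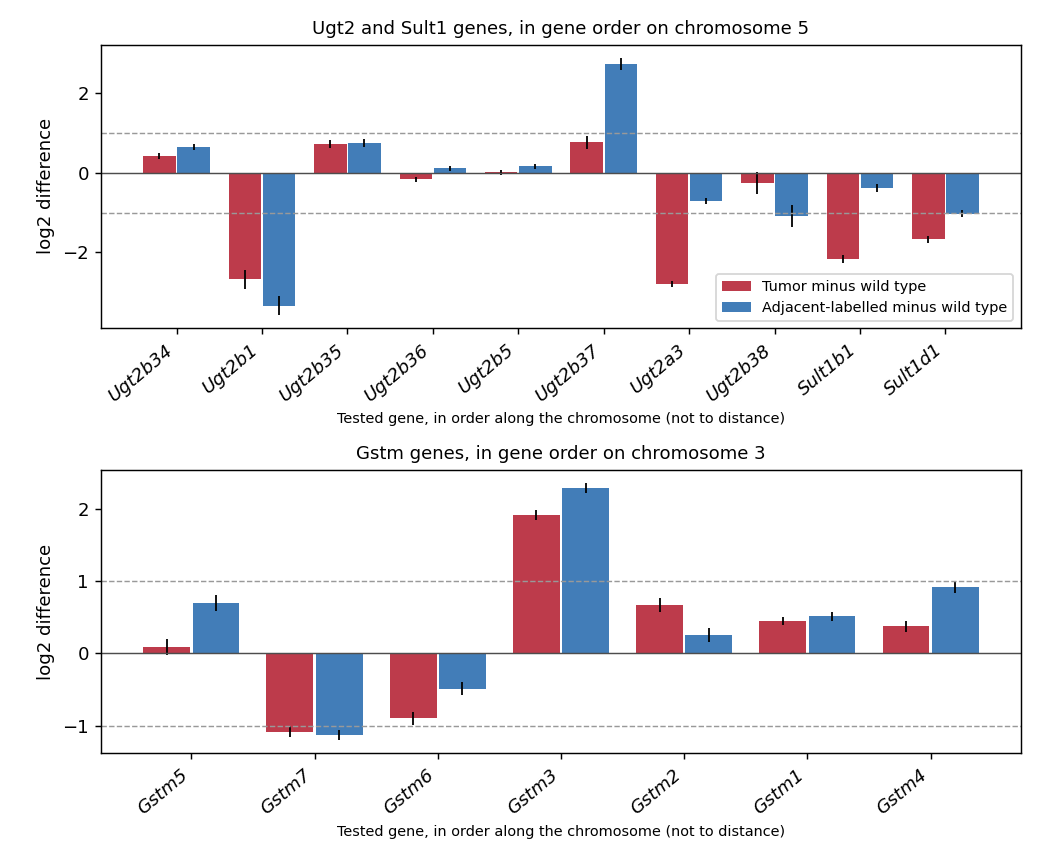
The log2 differences from wild-type liver (y axis, bars with standard errors from limma, n = 3 per group) are shown for tested genes in gene order (x axis, not to distance) on chromosome 5 (top) and chromosome 3 (bottom), tumor in red and adjacent-labelled liver in blue. In adjacent-labelled liver Ugt2b1 lies at -3.34 and Ugt2b37 at 2.74, and in both tissues Gstm3 lies above 1 beside Gstm6 below 0.

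Promoter windows were searched for the core of the antioxidant response element, the site bound by NRF2 with small Maf proteins, because several GST genes are known NRF2 targets. The windows are those of RefSeq on GRCm38.p6, 250 bases before to 50 after a transcription start, and the core was TGACNNNGC on both strands. Of 47 windows from 37 members, 3 held it, or 6.38%, against 12.4% of all 32851 windows. The 3 belonged to Gsta3 and Gstm7, both lower in tumor, and to Gstm5, called in no comparison. The window of Gstm3, the most raised GST gene, did not hold these letters. Gsta4, the other GST gene called higher in tumor, had no window and was not searched. The same held for Gstt2, Sult2a2, Sult4a1 and Ugt3a2. The stretches around the 3 matches and the bases before the start of Gstm3 are printed to set them side by side, 5′ to 3′ along each gene, with the core in capitals. They are chr1:21240405-21240524 (plus strand) for Gsta3, chr3:107895734-107895853 (plus) for Gstm5, chr3:107931725-107931754 (minus) for Gstm7 and chr3:107969175-107969294 (minus) for Gstm3.
Gsta3: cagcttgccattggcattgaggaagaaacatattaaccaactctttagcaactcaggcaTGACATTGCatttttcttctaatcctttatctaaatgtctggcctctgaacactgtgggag
Gstm5: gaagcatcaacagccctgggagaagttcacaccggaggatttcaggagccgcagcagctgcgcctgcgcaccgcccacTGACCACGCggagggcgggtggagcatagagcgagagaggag
Gstm7: gtctgaagaccTGACAAAGCgaagccaatc
Gstm3: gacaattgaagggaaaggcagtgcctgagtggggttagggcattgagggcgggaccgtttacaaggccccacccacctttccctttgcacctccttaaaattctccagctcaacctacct
The first base of the core lies 121 bases before the start in Gsta3, 42 in Gstm5 and 129 in Gstm7, in 1 of the 2 windows of the last. A match in this window is a description of letters, and its absence says nothing on sites elsewhere.

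Genes that supply the donors for conjugation moved in both directions. In tumor the glutathione genes Gss and Gclc were higher, while Cth and the sulfate donor gene Papss2 were lower. Of 15 tested genes of cofactor supply 5 rose and 2 fell in tumor against wild-type liver, and 4 rose and 1 fell in adjacent-labelled liver, beside the backgrounds above. The list median was 0.89 and 0.44. On the glutathione side, the glutathione synthetase gene Gss rose by 1.69 in tumor and 1.44 in adjacent-labelled liver, and Gclc, the catalytic subunit of the rate-limiting enzyme, by 1.24 in tumor, with 0.44 in adjacent-labelled liver. The cystine transporter gene Slc7a11 rose by 5.30 and 2.41, but in wild-type liver, at a mean of 4.46, all 3 pieces lay below the 40th percentile. It passed the filter only through the other groups, so it had to differ, and the size of its rise depends on background. Cth, which makes cysteine by transsulfuration, fell, at -2.06 and -1.60. Papss2, which makes the sulfate donor PAPS, fell, at -1.88 in tumor (adjusted p = 9.36e-09 in limma) and was at -0.06 in adjacent-labelled liver, and Papss1 was at -0.05 and -0.23. On the glucuronic acid side Pgm2 rose by 1.60 in tumor, from a wild-type mean of 6.50. Ugp2 and Pgm1, brighter at 12.50 and 11.73 in wild-type liver, were called in no comparison. In tumor they were at 0.50 and 0.32, and in adjacent-labelled liver at -0.10 and -0.36. Ugdh, Papss1, Ugp2 and Pgm1 were chosen after their values were seen. Ugdh, which makes UDP-glucuronic acid, rose by 1.14 in adjacent-labelled liver and was at 0.98 in tumor.

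Other conjugation enzymes and related genes also moved both ways. Of 20 tested, 2 rose and 8 fell in tumor, and 3 rose and 4 fell in adjacent-labelled liver, with list medians of -0.80 and -0.21. The share of all genes called was 8.41% and 8.30% higher and 4.59% and 3.22% lower. In tumor 2 of 20 higher is thus near the background, and 8 of 20 lower is above it. Mgst3, a microsomal glutathione transferase, rose by 1.82 in tumor and 1.99 in adjacent-labelled liver, and the quinone reductase gene Nqo1 by 3.06 and 2.81. Gstz1, the zeta class enzyme of tyrosine breakdown, fell, at -1.12 and -1.64. The nicotinamide methyltransferase gene Nnmt fell, at -2.89 and -3.08. Baat, which joins bile acids to taurine or glycine, fell, at -2.26 in tumor and was at -0.95 in adjacent-labelled liver. The arsenic methyltransferase gene As3mt was at -0.94 and 0.96 against wild type, and tumor was below adjacent-labelled liver, at -1.90 (adjusted p = 7.91e-08 in limma).

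Of 23 tested regulators of these genes 0 rose and 4 fell in tumor, and 0 rose and 3 fell in adjacent-labelled liver. Over all genes tested 13.0% and 11.5% were called in either direction in these comparisons, near the regulators' share. By direction, 8.41% and 8.30% of all genes were called higher. Called lower were 4.59% and 3.22% of all genes, a smaller share than of the regulators. Nr1i3, the xenobiotic receptor CAR, was at 10.24 in wild-type, 9.96 in adjacent-labelled and 8.08 in tumor pieces on average, and fell, at -2.17 in tumor (adjusted p = 1.47e-09 in limma). Ahr, the dioxin receptor gene, fell, at -2.18 and -2.17, and the repressor gene Bcl6 at -1.23 and -2.18. Nr1h4, the bile acid receptor FXR, fell, at -1.08 in tumor. Foxa1, chosen after its value was seen, fell, at -1.28 in adjacent-labelled liver and was at -0.07 in tumor. Nfe2l2, which encodes NRF2, was at 0.95 and 0.31, and its partner Mafk at 0.78 and 0.35, both under the 2-fold limit.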

How the data were processed

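The authors deposited log2 values of 45101 probe sets on 9 arrays. Their processing notes, per the labels, name RMA and version 1.3.1.187 of Affymetrix Expression Console. The method corrects background, equalises array distributions and summarises probes, which hides changes that move most genes one way. Detection calls and scan dates were not used here. Probe sets were named from the platform annotation: 34945 had 1 symbol, control probe sets left out, and all 42 members matched RefSeq (GRCm38.p6) by Entrez identifier.

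Group differences came from limma (version 3.58.1, R 4.3.3; 1 mean per group, all 9 arrays, 6 residual degrees of freedom, Benjamini-Hochberg adjustment over 13887 genes). The fit was tested on simulated data. The replicate number was not used as a pair, because nothing in the labels says that it pairs pieces. Same-numbered pieces deviated together at r of -0.11 to 0.14. Members and lists were chosen with earlier results of these data known. Values by array are given, per family, for the 5 called members with the largest rise and the 5 with the largest fall in tumor, the 3 largest in the other comparisons, and for Ugt2b38 and Gsto1, chosen after their values were seen. Genes outside the families come from fixed lists, up to 6 each by smallest adjusted p. Further list genes are named above as chosen after their values were seen. Alternatives covered the threshold, filter, probe set rule, cyclic loess, trend, array weights, 2 groups alone, a replicate block and each array left out. Arrays, 3 per group, limit the precision. A protein comparison was not run.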

Additional observations from a re-analysis of the deposited data

How the results depend on the processing

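Over the 10 alternatives that keep all arrays, the counts of called members and list genes stayed within 1.5 times in 110 of 120 cases, and the other 10 all came from dropping the 2-fold limit. By the adjusted p alone, tumor against wild-type liver gave 7 UGT, 8 SULT, 14 GST and 57 list genes. Adjacent-labelled against wild-type liver gave 8 UGT, 17 GST and 57 list genes, and tumor against adjacent-labelled liver 8 UGT, 13 GST and 46 list genes. With 1 array left out, counts for tumor against wild-type liver ranged over 4 to 4 UGT, 4 to 6 SULT, 5 to 5 GST and 25 to 28 list genes, and no count left 1.5 times its value with all arrays. With the replicate number as a block, the same 14, 13 and 13 members were called as without it. Of 1992 single results of the tested members, 1924 kept direction and call, 11 lost the call and none reversed. Of the 57 that gained one, 48 did so because the 2-fold limit was dropped, and 9 passed that limit under another alternative. Cyclic loess added Sult2b1 in tumor (1.01) and Ugt3a2 in adjacent-labelled liver (-1.07). Array weights removed Sult1d1 (-0.996) and Ugt2b38 (-0.90) in adjacent-labelled liver and added Ugt3a2 (-1.12). The causes were not tested. The filter at the 60th percentile gave no value for Sult2b1, which it left out. Signal over background limits Sult2a2, Ugt2b37, Sult2b1 and Slc7a11 in wild-type liver and Sult2a8 in tumor.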

Other observations

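Genes that export compounds from the cell, conjugates among them, or split conjugates again included 4 that rose in tumor and 4 that rose in adjacent-labelled liver. These were among 10 tested genes of deconjugation and export, of which 1 fell in tumor and 0 in adjacent-labelled liver. In the 2 comparisons with wild-type liver, 8.41% and 8.30% of all genes tested were called higher and 4.59% and 3.22% lower. The list median was 0.71 and 0.68. Abcc4, an exporter of conjugates across the basolateral membrane, rose by 5.04 in tumor and 4.72 in adjacent-labelled liver. Abcb1a, the gene of a P-glycoprotein, rose by 3.31 and 3.80 and Abcc1 by 1.64 and 2.09. Abcc2, the canalicular exporter of glucuronides and glutathione conjugates, rose by 1.01 in tumor and was at 0.71 in adjacent-labelled liver. Gusb, the lysosomal glucuronidase, was at 0.98 in tumor and rose by 1.69 in adjacent-labelled liver. Abcc6 fell by -1.24 in tumor and was at -0.88 in adjacent-labelled liver.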
